A study of Homo sapiens with 8 samples.

Results

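Ribosome footprints on the 5 replication-dependent linker histone H1 genes, H1-1 to H1-5, were followed in HAP1 cells, a near-haploid adherent human line that derives from a chronic myeloid leukaemia. The members were chosen by gene identifier, and all 5 of them were found among the 19580 genes in the deposited table. The groups were RNF14 knockout at 30 min, RNF14 knockout at 0 min, wild type at 30 min and wild type at 0 min, with 2 biological replicates each per the series design and 8 libraries in all. Cells of every group, wild type included, had been given 5 uM 4SU (4-thiouridine, a photoactivatable uridine analogue) for 18 h and then 6 kJ/m2 of UVA, which links RNA to bound protein, and the time is that of recovery before harvest. No group without 4SU and UVA was analysed here. RNF14, the protein missing in the knockout, is a ubiquitin ligase of stalled ribosomes. How many clones the knockout line represents is not given in the sources used here.

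Linker histones bind the nucleosome where DNA enters and leaves it and help to fold chromatin. The replication-dependent H1 genes have no introns, and their mRNAs end in a stem-loop bound by SLBP rather than in a poly(A) tail. They are made mostly during S phase, together with the core histones. H1-2, H1-3 and H1-4 are broadly expressed subtypes, H1-5 is found in many dividing cells, and H1-1 is restricted to a few tissues. The subtypes share a conserved globular domain, so their coding sequences resemble each other. How reads that fit more than 1 place were counted is not given in the sources used here, and a division of reads between the paralogs is uncertain to that extent.

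The values were RPKM, reads scaled to transcript length and to the reads in the table, so levels of different genes can be compared within a library. Multiplying by length, and dividing by the smallest product above 0 in each library, taken as 1 read, gave back whole reads. The protocol names no poly(A) selection, and footprints of 15 to 70 nt were cut from a gel. Library totals ran from 323946 reads, in knockout at 30 min replicate 1, to 1241975 reads, in knockout at 0 min replicate 1. The shallowest one carries a mark of a repeat in the table that the labels do not explain. All 4 libraries at 30 min were shallower than all 4 at 0 min. The files pair no other gene identifier with a symbol, so RNF14 itself, markers of HAP1 or of other cell types, SLBP and the core histones could not be looked up. In a bulk lysate, more cells making a histone and more footprints per cell cannot be told apart, and no matched RNA level was analysed here.

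All 5 genes lie on chromosome 6 (GRCh38.p14, RefSeq) and their annotated lengths equal those in the table. H1-1 (ENSG00000124610) is at chr6:26017032-26017787 on the minus strand with 756 nt, and H1-2 (ENSG00000187837) at chr6:26055740-26056470 on the minus strand with 731 nt. H1-4 (ENSG00000168298) is at chr6:26156329-26157115 on the plus strand with 787 nt, and H1-3 (ENSG00000124575) at chr6:26234212-26234987 on the minus strand with 776 nt. H1-5 (ENSG00000184357) stands apart in the cluster, at chr6:27866792-27867588 on the minus strand with 797 nt.

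The 130 bases before each annotated gene start are shown 5′ to 3′ on the strand of the gene, credited to RefSeq, GRCh38.p14. Capitals mark AAACACA, the core of the H1 box of linker histone promoters, and CCAAT and TATANA, the CCAAT box and the TATA motif, each searched on both strands. In order the stretches are chr6:26056471-26056600 (minus strand), chr6:26156199-26156328 (plus strand), chr6:26234988-26235117 (minus strand), chr6:27867589-27867718 (minus strand) and chr6:26017788-26017917 (minus strand).
H1-2: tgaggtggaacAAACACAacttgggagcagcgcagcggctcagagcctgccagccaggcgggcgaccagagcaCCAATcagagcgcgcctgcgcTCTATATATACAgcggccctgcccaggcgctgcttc
H1-4: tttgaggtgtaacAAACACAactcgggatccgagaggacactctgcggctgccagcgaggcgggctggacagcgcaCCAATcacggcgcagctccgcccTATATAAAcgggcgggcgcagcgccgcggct
H1-3: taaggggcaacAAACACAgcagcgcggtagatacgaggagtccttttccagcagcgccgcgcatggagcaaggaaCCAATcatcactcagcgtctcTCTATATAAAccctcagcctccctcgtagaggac
H1-5: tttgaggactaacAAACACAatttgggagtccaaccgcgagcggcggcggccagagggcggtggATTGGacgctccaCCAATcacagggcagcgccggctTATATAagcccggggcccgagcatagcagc
H1-1: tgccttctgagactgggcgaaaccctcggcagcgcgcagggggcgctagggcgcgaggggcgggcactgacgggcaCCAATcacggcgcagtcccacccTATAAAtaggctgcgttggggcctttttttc

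The longest run of letters shared by the 250 bases upstream of H1-2, H1-3, H1-4 and H1-5 was AACAAACACA, which holds the H1 box core. It starts at position -122 in H1-2 and H1-3 and at -120 in H1-4 and H1-5, counted from the gene start, and is absent from these 250 bases of H1-1. In H1-1 the only AAACACA lies on the other strand, from -183 to -177. H1-2 has a further one on the other strand from -242 and H1-5 one on its own strand from -226. All 5 share ACCAATCA, which starts between -58 and -54, and a TATANA on the gene's own strand downstream of it. TATANA matches overlap each other in all of them but H1-1. Of 35116 RefSeq promoters, AACAAACACA on either strand was in 0.131% and ACCAATCA in 1.78%. AAACACA was in 4.82%, CCAAT in 32% and TATANA in 17.7%. The run that H1-2, H1-3 and H1-4 share stood before H1-5 as well. The match describes sequence only, and a link between these sequences and footprint levels was not tested.

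H1-2, H1-4 and H1-3 were among the most read genes in every library, in that order by RPKM, and H1-5 and H1-1 were hardly read at all. H1-2 ranked from 4 to 11 by RPKM in the 8 libraries, H1-4 from 8 to 14 and H1-3 from 30 to 79. Over all libraries the table held 28905 reads of H1-2, 27538 of H1-4 and 8710 of H1-3, against 10 of H1-5 and 5 of H1-1. Per length and over all libraries, H1-2 was 3152-fold above H1-5, with an exact 95% counting interval from 1713 to 6573, and 5979-fold above H1-1, with an interval from 2562 to 18415. All 5 genes passed the filter of a mean RPKM of at least 1, H1-5 at a mean of 2.67 RPKM and H1-1 below it.

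Footprints on H1-2 at 30 min stood above those at 0 min in both genotypes. In the knockout, H1-2 had 10435 and 11755 RPKM at 30 min, against 4963 and 5023 RPKM at 0 min. In wild type it had 11755 and 10797 RPKM at 30 min, against 3411 and 3742 RPKM at 0 min. The libraries of the 2 times did not overlap in either genotype, where 18.6% of all tested transcripts were higher without overlap in the knockout and 14% in wild type. At 30 min the genotypes overlapped, while at 0 min both knockout libraries lay above both wild-type ones, as for 21.5% of all tested transcripts. H1-2 was the H1 gene with the highest footprint level in all 8 libraries.

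H1-4 followed H1-2 closely. In the knockout it had 8896 and 10016 RPKM at 30 min, against 4589 and 4541 RPKM at 0 min. In wild type it had 10219 and 9200 RPKM at 30 min, against 3190 and 3444 RPKM at 0 min. Times again did not overlap, as for 18.6% of all tested transcripts in the knockout and 14% in wild type. The genotypes overlapped at 30 min. At 0 min the knockout lay above wild type without overlap, as for 21.5% of all tested transcripts. Across the 8 libraries, log2(RPKM + 1) of H1-2 and H1-4 correlated with r = 0.99975, H1-2 and H1-3 with r = 0.991 and H1-4 and H1-3 with r = 0.9905, a description over libraries that share their totals and their recovery time.

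H1-3 was less read but moved further. In the knockout it had 3409 and 3684 RPKM at 30 min, against 1473 and 1441 RPKM at 0 min. In wild type it had 3285 and 2870 RPKM at 30 min, against 826 and 926 RPKM at 0 min. H1-3 was the only one of the 5 genes whose knockout libraries lay above both wild-type libraries at both times. Of all tested transcripts 21.5% did so at 0 min and 20.2% at 30 min, and the share at both times was not taken. The order of the groups by mean of H1-3 was knockout at 30 min, wild type at 30 min, knockout at 0 min and wild type at 0 min. For H1-2 and H1-4 the 30 min groups stood the other way round, with means that differed by less than their spread. H1-2 averaged 11095 ± 933 RPKM in knockout and 11276 ± 677 RPKM in wild type at 30 min (SD, n = 2 each). H1-4 averaged 9456 ± 792 RPKM in knockout and 9710 ± 721 RPKM in wild type at 30 min (SD, n = 2 each).

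**Figure D1:**
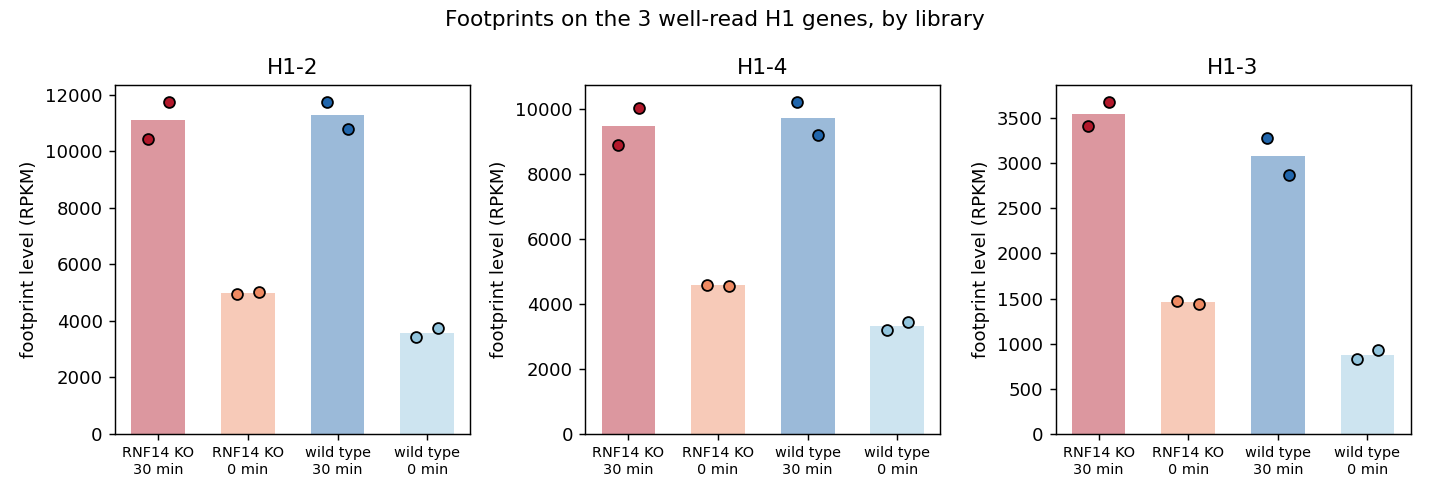
Footprint level in RPKM (vertical axes, each from 0) of H1-2, H1-4 and H1-3 in the 4 groups; points are the 2 libraries of a group and bars their mean. In each gene both libraries at 30 min stand above both at 0 min within a genotype, and at 0 min the knockout stands above wild type, as with 4963 and 5023 RPKM against 3411 and 3742 RPKM for H1-2. Of all tested transcripts, 18.6% in the knockout and 14% in wild type were higher at 30 min without overlap. At 0 min 21.5% were higher in the knockout without overlap.

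The 2 rarely read genes allowed no statement on groups. H1-5 had 2 and 0 reads in knockout at 30 min, against 1 read in the 2 knockout libraries at 0 min together. In wild type it had 4 and 1 reads at 30 min, against 0 and 2 reads at 0 min. H1-1 had 1 read in knockout at 30 min and 1 in knockout at 0 min, each in 1 library of the pair. It had 2 and 1 reads in wild type at 30 min, against 0 in both libraries of wild type at 0 min, where 3 reads would correspond to 4.46 and 4.08 RPKM. Both counts are at or under that floor, so no fold is given. For H1-5 in wild type the ratio of read shares at 30 over 0 min was 3.77, with an exact 95% counting interval from 0.618 to 39.6.

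**Figure D2:**
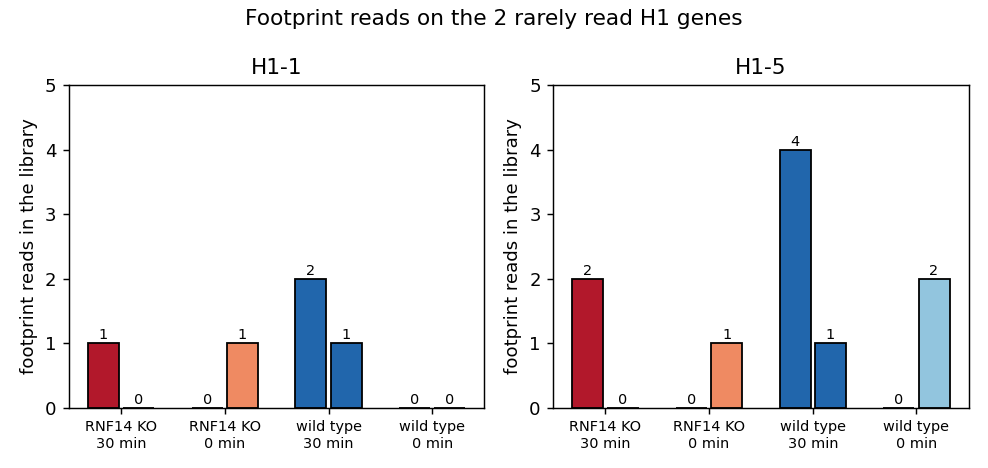
Number of footprint reads (vertical axes) of H1-1 and H1-5 in each of the 8 libraries, 2 bars a group with the count above each bar. No library held more than 2 reads of H1-1 or 4 reads of H1-5.

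Recovery in the knockout was tested first. The question was how footprints changed in the 30 min after crosslinking when RNF14 was absent. H1-2, H1-3 and H1-4 rose and H1-1 and H1-5 did not pass the test, so 3 of 5 genes rose, where 0.646% of 11920 tested transcripts did (limma-trend on log2(RPKM + 1), adjusted p below 0.05). H1-3 rose by 1.28 on the log2 scale (SE 0.12, limma adjusted p = 0.00123), H1-2 by 1.15 (SE 0.11, limma adjusted p = 0.00108) and H1-4 by 1.05 (SE 0.11, limma adjusted p = 0.00166). In read shares that was 2.44-fold for H1-3, 2.25-fold for H1-2 and 2.09-fold for H1-4, with exact 95% counting intervals of 2.30 to 2.59, 2.17 to 2.32 and 2.02 to 2.16. H1-5, with 2 reads at 30 min against 1 at 0 min, and H1-1, with 1 against 1, were at or under the floor of 3 reads in both groups. The median of the fitted values of the 5 genes was 1.05, also with those 2 set to no change, against -0.12 over all tested transcripts. Without the shallowest library, knockout at 30 min replicate 1, the log2 changes of H1-3, H1-2 and H1-4 were 1.34, 1.24 and 1.13 and all 3 calls held. Reads on these genes numbered at least 857 in every library of this comparison. With 2 replicates a group, the calls were lost without a mean-dependent prior variance, with limma adjusted p between 0.119 and 0.137, and with no filter on low values, with limma adjusted p between 0.0964 and 0.604.

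Recovery in wild type gave the same 3 risers. Of the 5 genes 3 rose, against 1.79% of all tested transcripts (limma-trend, adjusted p below 0.05). H1-3 rose by 1.81 on the log2 scale (SE 0.12, limma adjusted p = 6.14e-05), H1-2 by 1.66 (SE 0.11, limma adjusted p = 6.14e-05) and H1-4 by 1.55 (SE 0.11, limma adjusted p = 6.92e-05). In read shares the rise was 3.54-fold for H1-3 (exact 95% counting interval 3.32 to 3.79), 3.17-fold for H1-2 (3.06 to 3.28) and 2.95-fold for H1-4 (2.85 to 3.05). By unadjusted p these were transcripts 5, 2 and 7 of 11920, and by log2 change 42, 54 and 67. In the knockout they stood at 219, 291 and 367 by log2 change. H1-5 had a log2 change of 1.47 (95% interval -0.75 to 3.69), and H1-1, with 3 reads at 30 min against 0 at 0 min, did not pass (limma adjusted p = 0.179). The median of the fitted values of the 5 was 1.66, or 1.55 with H1-1 set to no change, against -0.26 over all tested transcripts. The calls of all 3 were lost without a mean-dependent prior variance (limma adjusted p between 0.0589 and 0.075), and with no filter on low values those of H1-2 and H1-4 were lost (limma adjusted p = 0.351 and 0.321) and that of H1-3 held.

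The size of the rise depended on the scaling. After quantile normalization, which gives every library the same set of values, the log2 change of H1-4 was 0.12 in the knockout and 0.27 in wild type and neither passed (limma adjusted p = 0.522 and 0.143). H1-2 still rose, by 0.34 in the knockout and 0.40 in wild type, and so did H1-3, by 1.02 and 1.38. Median centring put the rise of H1-2 in wild type at 1.94 and TPM scaling put it at 1.36, where the median of all tested transcripts stood at 0.02 and -0.54. None of the 3 scalings turned the direction of any of the 3 genes in recovery.

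Averaged over genotypes, the 3 genes rose by 1.55 (H1-3, SE 0.09, limma adjusted p = 9.73e-06), 1.40 (H1-2, SE 0.08, limma adjusted p = 9.05e-06) and 1.30 log2 units (H1-4, SE 0.08, limma adjusted p = 1.19e-05), 3 of 5 genes against 2.45% of all tested transcripts. They stood among genes of very high level, and many such genes rose too. Of the 68 other transcripts with a mean RPKM of at least 1000, 57.4% rose on average, 42.6% in the knockout and 55.9% in wild type. Their averaged log2 change had a median of 0.56 and quartiles of -0.15 and 1.17. H1-3, H1-2 and H1-4 lay above the upper quartile, with 6, 8 and 13 of the 68 having a larger change. Of 172 other tested transcripts of 700 to 800 nt, 7.56% rose and the median log2 change was -0.23. The bounds of these 2 classes were chosen with the data in view. All libraries at 30 min were also the shallower ones, from 323946 to 717828 reads, against 778683 to 1241975 reads at 0 min. The part of level or depth in the rise of the H1 genes was not tested.

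**Figure D3:**
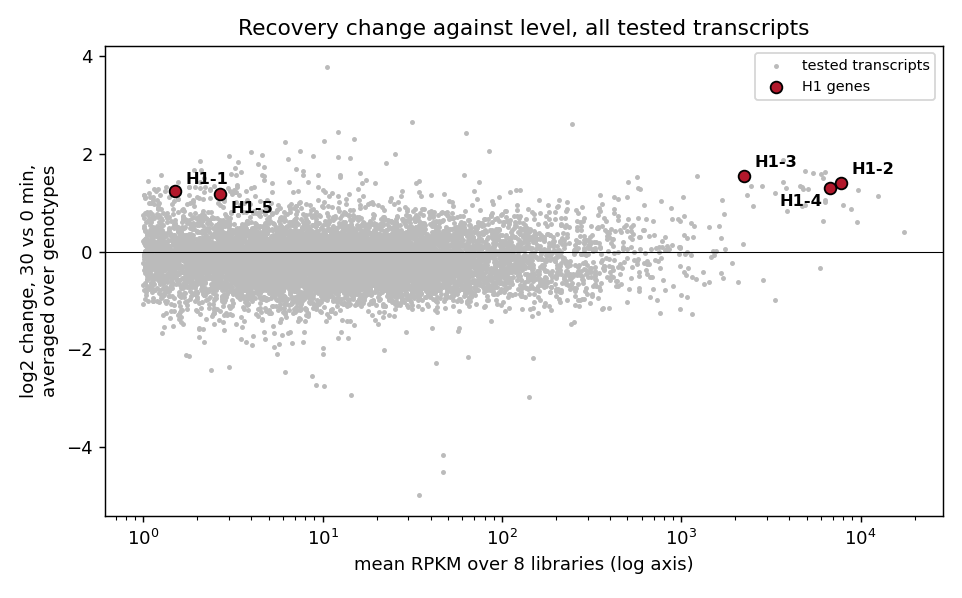
Log2 change at 30 over 0 min, averaged over genotypes (vertical axis), against mean RPKM over 8 libraries (horizontal, log axis) for 11920 tested transcripts, with the 5 H1 genes in red. H1-2, H1-4 and H1-3 lie among the most read transcripts at log2 changes of 1.40, 1.30 and 1.55, and H1-1 and H1-5 near the filter, on 5 and 10 reads in all.

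Together the 5 genes took 1.73% and 1.93% of all reads in knockout at 30 min, against 0.838% and 0.837% in knockout at 0 min. In wild type they took 1.92% and 1.74% at 30 min, against 0.565% and 0.617% at 0 min. The genotypes overlapped at 30 min, and the knockout stood above wild type at 0 min. The exact 95% counting interval was 1.68% to 1.77% for the first of these values, and the intervals of the 2 libraries of a group overlapped only in knockout at 0 min.

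The genotypes were compared directly at 0 min, which asks how footprints stood without RNF14 right after irradiation, with the same libraries as in the recoveries. None of the 5 genes passed in limma-trend, where 0.168% of all tested transcripts did. The log2 value was higher in the knockout by 0.74 for H1-3 (limma adjusted p = 0.0524, SE 0.12), by 0.48 for H1-2 (limma adjusted p = 0.124, SE 0.11) and by 0.46 for H1-4 (limma adjusted p = 0.142, SE 0.11). Each of these 3 was under an unadjusted p of 0.05, as were 13.6% of all tested transcripts. Each also had both knockout libraries above both wild-type ones, as had 21.5% of all tested transcripts. With whole reads as the input, limma voom called these 3 higher, with limma voom adjusted p of 0.0014 for H1-3, 0.00925 for H1-2 and 0.0124 for H1-4, beside 3.86% of all tested transcripts. In read shares the knockout stood 1.66-fold above wild type for H1-3, with an exact 95% counting interval from 1.55 to 1.78, 1.39-fold for H1-2 (1.34 to 1.44) and 1.38-fold for H1-4 (1.33 to 1.43). H1-5 and H1-1 had 1 and 1 reads in the knockout, against 2 and 0 in wild type. The other transcripts of at least 1000 RPKM had a median log2 difference of 0.30 and 2.94% of them passed as higher, and 2 of 68 had a larger one than H1-3, against 7 for H1-2 and 8 for H1-4.

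At 30 min the levels of H1-2 and H1-4 overlapped between the genotypes and no H1 gene passed the test. Of the 5 genes 0 passed in limma-trend or in limma voom and 0 had an unadjusted p below 0.05, where 10.9% of all tested transcripts had one, and 0.126% of all tested transcripts passed in limma-trend and 0.185% in limma voom. H1-2 had a log2 difference of -0.02 with a 95% interval from -0.26 to 0.21, H1-4 one of -0.04 from -0.28 to 0.20, and H1-3 one of 0.21 from -0.06 to 0.48 (limma adjusted p = 0.564). The sign turned with TPM scaling for H1-2 and H1-4, and with quantile normalization for H1-2. The 0 min point values of H1-2, H1-4 and H1-3 lie above these 30 min intervals, but carry error of their own. Their 95% intervals at 0 min ran from 0.25 to 0.72, 0.22 to 0.70 and 0.46 to 1.01 in turn. The interaction below compares the times directly, and none of the 3 passed there (limma adjusted p between 0.250 and 0.262). For H1-3 both knockout libraries lay above both wild-type ones, as for 20.2% of all tested transcripts. H1-5 and H1-1 had 2 and 1 reads in the knockout, against 5 and 3 in wild type.

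Whether recovery itself differed between genotypes was tested by the interaction. The log2 change in the knockout minus that in wild type, for H1-2, H1-3 and H1-4 in turn, was -0.51 (SE 0.15), -0.53 (SE 0.17) and -0.50 (SE 0.15), and none of the 3 passed the correction, with limma adjusted p of 0.250, 0.262 and 0.250. The unadjusted p of all 3 was below 0.05, between 0.00692 and 0.0116, as was that of 13.3% of all tested transcripts, and 0.00839% passed the correction in limma-trend. Limma voom called 0 of the 5 genes, beside 0.579% of all tested transcripts. The median of the 68 other transcripts of at least 1000 RPKM was -0.43, with quartiles of -0.55 and -0.26 that enclosed all 3 values. The median over all tested transcripts was 0.09. H1-5 and H1-1 rested on too few reads for their fitted values to be read as differences.

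**Figure D4:**
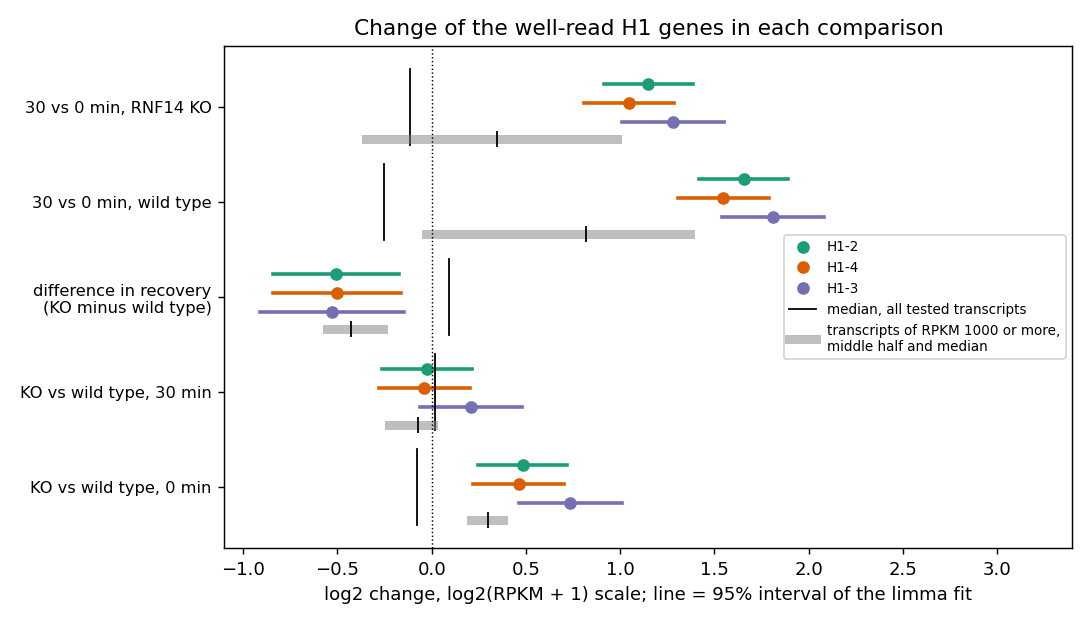
Log2 change on the log2(RPKM + 1) scale (horizontal axis) of H1-2, H1-4 and H1-3 in 5 comparisons, as points with the 95% interval of the limma fit; thin black lines mark the median of all tested transcripts and grey bars the range between the quartiles of the 68 other transcripts of at least 1000 RPKM, with a tick at their median. The points of both recoveries lie to the right of those bars, and the points of the differences in recovery lie within them. Some of the 95% intervals cross the ends of the bars.

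Ratios between members within a library do not depend on a factor common to the whole library, but they do move under quantile normalization. There the changes of H1-2, H1-3 and H1-4 lay further apart in both recoveries and between genotypes at 0 min. Between genotypes at 30 min those of H1-3 and H1-2 lay closer, at 0.17 and 0.085, against 0.21 and -0.02 in the main fit. Relative to H1-2 and H1-4, H1-3 stood higher at 30 min than at 0 min within each genotype, and higher in knockout than in wild type at each time. These ratios were taken up with the data in view. The ratio of H1-3 to H1-2 was 0.327 and 0.313 in knockout at 30 min, against 0.297 and 0.287 in knockout at 0 min. In wild type it was 0.279 and 0.266 at 30 min, against 0.242 and 0.247 at 0 min. The groups did not overlap in any of these 4 pairs of groups that share a genotype or a time. In the mean of logs the ratio was 1.10-fold higher at 30 than at 0 min and 1.18-fold higher in knockout than in wild type. For each an exact two-sided permutation test within strata gave p = 0.0556, the smallest that 36 arrangements allow, and 0.0667 after adjustment over 6 tests, so neither could pass 0.05.

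The ratio of H1-3 to H1-4 shifted in the same way and further. It averaged 0.376 ± 0.011 in knockout at 30 min and 0.319 ± 0.0026 in knockout at 0 min, and 0.317 ± 0.0068 in wild type at 30 min and 0.264 ± 0.0069 in wild type at 0 min (SD, n = 2 each). That was 1.19-fold higher at 30 min and 1.20-fold higher in the knockout. For each the exact permutation p = 0.0556 was again the smallest that 36 arrangements allow, and 0.0667 after adjustment over 6 tests. The ratio of H1-4 to H1-2 averaged 0.852 ± 0.0003 in knockout at 30 min and 0.914 ± 0.014 in knockout at 0 min, and 0.861 ± 0.012 in wild type at 30 min and 0.928 ± 0.010 in wild type at 0 min (SD, n = 2 each). It was lower at 30 min, at 0.930 of the 0 min value (exact permutation p = 0.0556, the same smallest value, and 0.0667 after adjustment). Between genotypes it did not separate, at 0.988 of wild type (exact permutation p = 0.333). H1-3 made up 14.7% ± 0.36 of the summed H1 RPKM in knockout at 30 min and 13.2% ± 0.19 in knockout at 0 min, and 12.8% ± 0.32 in wild type at 30 min and 11.3% ± 0.20 in wild type at 0 min (SD, n = 2 each).

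**Figure D5:**
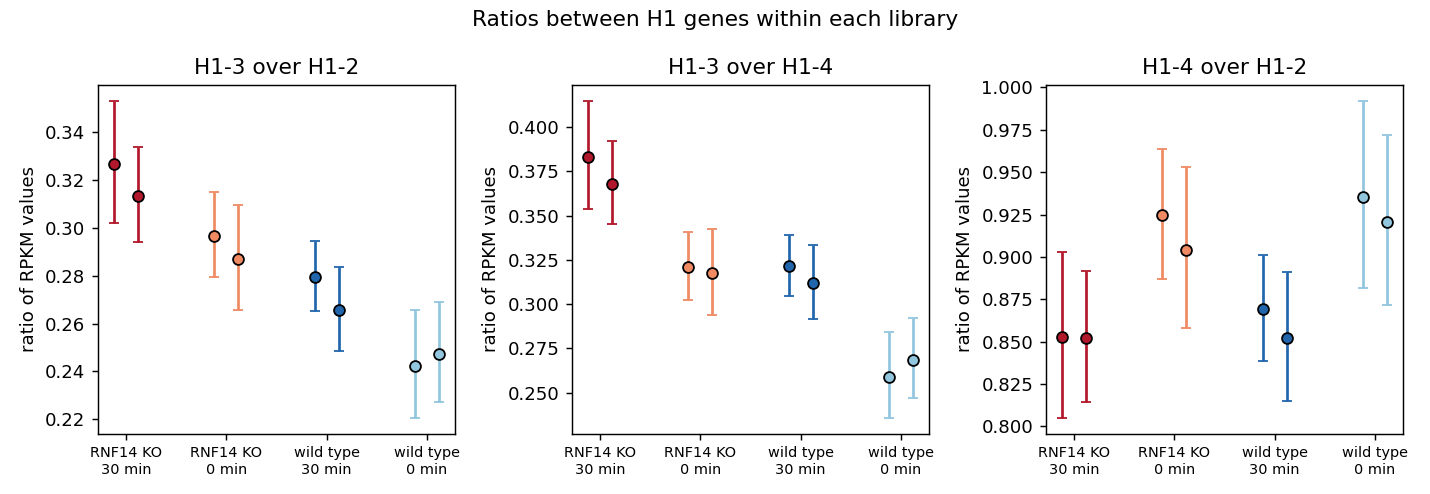
Ratio of RPKM values (vertical axes, not starting at 0) of H1-3 over H1-2, H1-3 over H1-4 and H1-4 over H1-2 in each library; bars are exact 95% counting intervals. H1-3 over H1-2 runs between 0.313 and 0.327 in knockout at 30 min and between 0.242 and 0.247 in wild type at 0 min, groups that differ in both genotype and time. The points of H1-4 over H1-2 separate the times but not the genotypes. Counting intervals of some libraries overlap between groups.

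The genes most like the H1 genes over the 8 libraries were sought among 6831 other transcripts with a mean RPKM of at least 10. By the mean of all 5 centred H1 profiles, in which H1-1 and H1-5 weigh as much as the rest, the first was ENSG00000112312, of 1263 nt, with r = 0.976, and the first 5 had r between 0.952 and 0.976. By the mean of H1-2, H1-3 and H1-4, a choice made after the data were seen, the first was ENSG00000197409, of 503 nt, with r = 0.997, a mean of 4916 RPKM and a log2 change of 1.64 in averaged recovery. The first 5 by that measure all had r of at least 0.9926. The identifiers of these transcripts are paired with no symbol in the files.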

How the data were processed

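Ribosome footprints of 8 HAP1 libraries were given by the authors as RPKM, in 1 table with the transcript length of each gene. Reads were trimmed with cutadapt and aligned with STAR 2.7.10a to hg38, per the submitters' processing notes; how reads were counted, and whether duplicates were removed, is not given in the sources used here. RPKM times length was divided by its smallest value above 0 in each library, taken as 1 read. The result came within 0.05 of whole reads for 100% of the deposited values above 0. Totals of 323946 to 1241975 reads limit genes of a few reads, and counting intervals (Clopper-Pearson, 95%) cover counting error only.

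limma 3.58.1 in R 4.3.3 fitted log2(RPKM + 1) of 11920 of 19580 transcripts with a mean RPKM of at least 1, over all 8 libraries as 4 group means with 4 residual degrees of freedom, an intensity trend and Benjamini-Hochberg adjustment over all of them (threshold 0.05). Biological replicates with the same number were not treated as pairs. Alternatives, 19 in all, changed the pseudocount, filter, scaling, block, trend, count model, samples or left out 1 library each.

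The 5 members and all lists were chosen with earlier results of these data known. All 5 members are named, with the 5 transcripts that follow them most closely summarised and at most 2 identifiers printed. Further lists (other linker histones, core histones, histone mRNA processing, S phase, H1 chaperones, cell type markers) were not run, since 0 identifiers could be paired with symbols in the tables used here. Member symbols were given with their identifiers, and their lengths were checked against RefSeq. Promoters came from RefSeq, GRCh38.p14.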

Additional observations from a re-analysis of the deposited data

How the results depend on the processing

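Under the 19 alternatives, H1-2, H1-3 and H1-4 kept a positive log2 change in both recoveries. The number of H1 genes called in recovery was 3 in the knockout, 3 in wild type and 3 on average. Beside these, 1.97%, 3.23% and 7.79% of all tested transcripts were called in either direction, and the shares that follow are counted likewise. With quantile normalization, which lost H1-4, the number was 2 in each, beside 1.23%, 3.52% and 5.61%. With no filter on low values it was 0, 1 and 1, beside 0.22%, 0.587% and 1.6%. Without a trend it was 0 in the knockout and 0 in wild type, beside 0% and 0.0168%, and 3 on average, beside 0.831%. At 0 min the count between genotypes was 0, beside 0.168% of all tested transcripts. It was 1, in each H1-3, with a pseudocount of 5 (0.218%), a mean RPKM of at least 5 (0.285%), TPM scaling (0.21%) and quantile normalization (0.193%). With limma voom it was 3, beside 6.71%. The causes were not tested. Leaving out 1 library each gave 3 to 3 in each recovery, 3 to 4 on average and 0 to 0 in the genotype and interaction comparisons. The higher count on average came from H1-1, without knockout at 30 min replicate 2, a library with 0 reads of it. Its averaged log2 change was then 1.83 on 5 reads, 4 of them at 30 min. With so few reads, and with the filter passed mostly through the 30 min libraries, no rise of H1-1 is read from it. Directions turned as follows, those of H1-1 and H1-5 being fitted values on few reads. At 30 min the genotype difference of H1-2 was 0.031 with TPM and 0.085 with quantile normalization and that of H1-4 was 0.017 with TPM. With 1 library left out, the genotype difference at 30 min ran from -0.11 to 0.061 for H1-2, from -0.12 to 0.047 for H1-4, from -2.03 to 0.32 for H1-1 and from -2.39 to 0.74 for H1-5. Recovery in the knockout ran from -0.72 to 1.63 for H1-1 and from -0.69 to 2.44 for H1-5, the genotype difference at 0 min of H1-5 from -1.15 to 0.69 and its interaction from -2.16 to 0.97. Over all tested transcripts, recovery in the knockout had 235 calls, between 0 without a trend and 571 with TPM, and recovery in wild type 385, between 2 and 1385. Under a mean RPKM of at least 5, H1-1 and H1-5 were not tested.

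The labels do not say that equal replicate numbers share a day, and the deviations of same-numbered libraries correlated from -0.079 to 0.067 between groups. With the replicate number as a block, 3 H1 genes were called in each recovery and 0 between genotypes or in the interaction, as without it.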
